A study of Mus musculus with 6 samples.

Results

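Genes that are switched on in dividing cells were examined in the dorsal hippocampus of mice in which the long noncoding RNA Snhg11 had been knocked down. The genes were listed by name as proliferation genes, without a filter on their values but with earlier results of these data known. The set holds 36 genes out of 55401 gene identifiers in the deposited counts. Of these, 10 act in S phase (the Mcm2 to Mcm7 helicase subunits, Pcna, Rrm1, Rrm2 and Tyms), 24 act in G2 and mitosis or are used as markers of cycling cells, from Mki67 and Top2a to Cdca8, and are called G2/M genes below, and 2 encode cyclin E (Ccne1 and Ccne2). The study injected an antisense oligonucleotide (ASO) into the dorsal dentate gyrus on both sides, at 50 μg per hemisphere, in WT mice aged 4 months that were littermates of the Ts65Dn line, and sequenced RNA from the dorsal hippocampus. The tissue came from male mice and was collected 3 days after the injection. There were 3 mice given Control-ASO, a scrambled oligonucleotide of equal length that targets no gene, and 3 given Snhg11-ASO, which directs RNase H to Snhg11 and which the labels give as the genotype Snhg11 KD. All 6 mice had undergone the same surgery, and no uninjected mouse is among the samples, so the comparison is between the oligonucleotides. An ASO is not confined to a cell type by a promoter, so the knockdown is not specific to dividing cells.

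Proliferating cells express these genes in waves. Before and during S phase the MCM complex is loaded onto DNA and unwinds it, PCNA clamps the polymerase to the template, and ribonucleotide reductase (Rrm1, Rrm2) and thymidylate synthase (Tyms) supply nucleotides. Towards mitosis the cyclin B-Cdk1 kinase, topoisomerase IIα, the kinetochore and spindle proteins and the chromosomal passenger complex take over. In the adult hippocampus the dividing cells are a small minority, mainly progenitors of the subgranular zone of the dentate gyrus and oligodendrocyte precursors, and microglia can divide as well.

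The promoters of the 2 waves carry different sequence elements, and 4 of them that hold such elements are printed as examples. Each line gives the 120 bases before the RefSeq transcription start on GRCm38.p6, read 5′ to 3′ on the strand of the gene, with matches to the motifs in capitals. Mcm6 is taken from chr1:128359706-128359825 (minus strand), Top2a from chr11:99024190-99024309 (minus strand), Mki67 from chr7:135716380-135716499 (minus strand) and Hmgb2 from chr8:57511723-57511842 (plus strand).
Mcm6: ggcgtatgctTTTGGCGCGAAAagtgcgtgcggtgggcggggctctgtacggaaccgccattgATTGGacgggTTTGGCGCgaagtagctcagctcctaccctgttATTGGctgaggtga
Top2a: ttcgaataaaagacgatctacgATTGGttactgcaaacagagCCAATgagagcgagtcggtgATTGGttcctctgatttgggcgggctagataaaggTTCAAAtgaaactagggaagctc
Mki67: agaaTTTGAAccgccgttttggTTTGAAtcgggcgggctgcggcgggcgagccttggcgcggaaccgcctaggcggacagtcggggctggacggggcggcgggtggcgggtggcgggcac
Hmgb2: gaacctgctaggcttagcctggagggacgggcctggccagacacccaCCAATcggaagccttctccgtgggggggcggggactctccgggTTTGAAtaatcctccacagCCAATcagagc
The capitals mark E2F sites (TTTCCCGC, TTTGGCGC, TTTGCCGC or TTTCGCGC, the sites of the E2F factors that drive S phase genes), the cell cycle homology region CHR (TTTGAA, bound by the MuvB complex in G2/M promoters) and the CCAAT box bound by NF-Y, each on either strand, so that TTCAAA and ATTGG are the last pair read from the other strand. The Mcm6 stretch holds 3 E2F matches, of which the first pair overlap, and no CHR. Those of Top2a and Hmgb2 hold a CHR, 23 and 30 bases before the start, next to CCAAT boxes, and that of Mki67 holds 2 CHR matches and no E2F site. The corresponding stretches of Pcna and Nusap1, not printed, hold neither an E2F match nor a CHR.

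The same search was run over a window of 300 bases, from 250 before to 50 after the start, which RefSeq gave for 9 S phase, 20 G2/M and 1 of the 2 cyclin E members. An E2F match was found in 4 of 9 S phase windows (44.4%), Mcm3, Mcm5, Mcm6 and Mcm7, and in 1 of 20 G2/M windows (5%), that of Cdk1. Of the 12598 windows of genes tested here 3.81% held one. The CHR showed the opposite split, with 1 of 9 S phase windows (11.1%, Mcm2) and 15 of 20 G2/M windows (75%), against 12% of all genes tested. Each of those 15 G2/M windows also held a CCAAT box, a pair found in 4.93% of all windows, while the CCAAT box alone was in 8 of 9 S phase and 18 of 20 G2/M windows (88.9% and 90%) and in 38.1% of all. Windows of other replication genes (39) and other mitosis genes (51) leaned the same way as the members, with E2F matches in 28.2% and 9.8% and a CHR in 15.4% and 60.8%. These genes were listed by role, with earlier results of these data known. The windows of 10 members, Pcna, Rrm1, Rrm2, Tyms, Ccne1, Ccnb1, Birc5, Bub1, Cenpe and Nusap1, held neither an E2F match nor a CHR as spelled here.

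**Figure D1:**
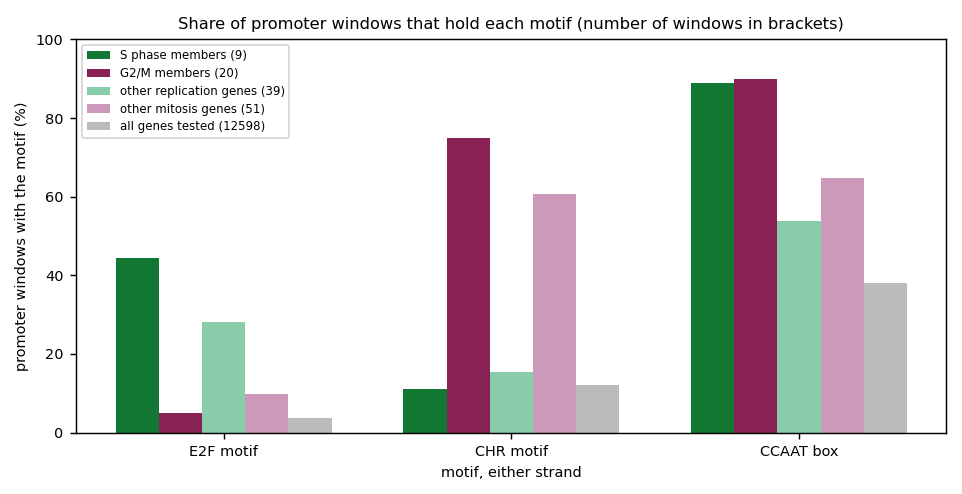
Share of RefSeq promoter windows (300 bases) that hold an E2F motif, a CHR motif or a CCAAT box on either strand, as a percentage on the y axis, for S phase members (9 windows), G2/M members (20), other replication genes (39), other mitosis genes (51) and all genes tested (12598). E2F matches are most frequent in the S phase members (44.4%) and CHR matches in the G2/M members (75%), against 3.81% and 12% of all genes.

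Between 28951250 and 43997537 read pairs per sample were assigned to genes on the transcribed strand, and all 36 members passed the filter on low counts among 19969 genes tested. Levels are given as CPM, counts scaled to the effective library size, and between genes as RPKM, CPM per kilobase of exon. The targeted RNA, Snhg11, lay between 209 and 551 CPM with Control-ASO and between 65.4 and 139 CPM with Snhg11-ASO, with no overlap of the groups (log2 fold change -2.13, adjusted p = 0.395 in edgeR and 3.8e-05 in DESeq2). Snhg11-ASO replicate 1 stood apart from all other samples across genes (Spearman's rho 0.955 to 0.959 with each of them, against 0.979 to 0.991 among the others), and results are given with and without it. Over all genes edgeR's quasi-likelihood test called 0 at an adjusted p under 0.05 (smallest 0.237), with 1619 at an unadjusted p under 0.05, and DESeq2 called 251 of 18570 (1.35%). The p-values measure the spread between 3 mice a group, and in bulk tissue fewer cells of a type and less RNA per cell cannot be told apart.

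The members were expressed at low levels. In RPKM averaged over the 6 samples, S phase members ranged from 0.488 (Rrm2) to 8.75 (Pcna) with a median of 1.44, and G2/M members from 0.174 (Bub1) to 1.09 (Ccnb2) with a median of 0.457. Only 11 of the 36 exceeded 1 RPKM, 7 in S phase, both cyclin E genes and, of the G2/M genes, Ccnb2 and Mki67. A sample held between 25 and 1181 counts of an S phase member (median 265) and between 6 and 699 counts of a G2/M member (median 62), so the G2/M values rest on fewer reads.

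In the comparison of Snhg11-ASO with Control-ASO, the fold change was above 0 for 29 members and below 0 for 7, where 51.7% of all genes tested were above 0. No member passed the adjusted threshold in edgeR (adjusted p from 0.492 to 0.997) or in DESeq2 (smallest adjusted p 0.0871). At an unadjusted p under 0.05 edgeR singled out 3 members, all higher in Snhg11-ASO (Pcna, Mcm7 and Hmgb2), which is 3 of 36 where the background is 3.68% of genes higher, 4.43% lower and 8.11% in either direction. The groups did not overlap for 4 members that were higher (these 3 and Nusap1) and 1 that was lower (Ccnb2), against a background of 7.73% and 7.7% of genes.

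**Figure D2:**
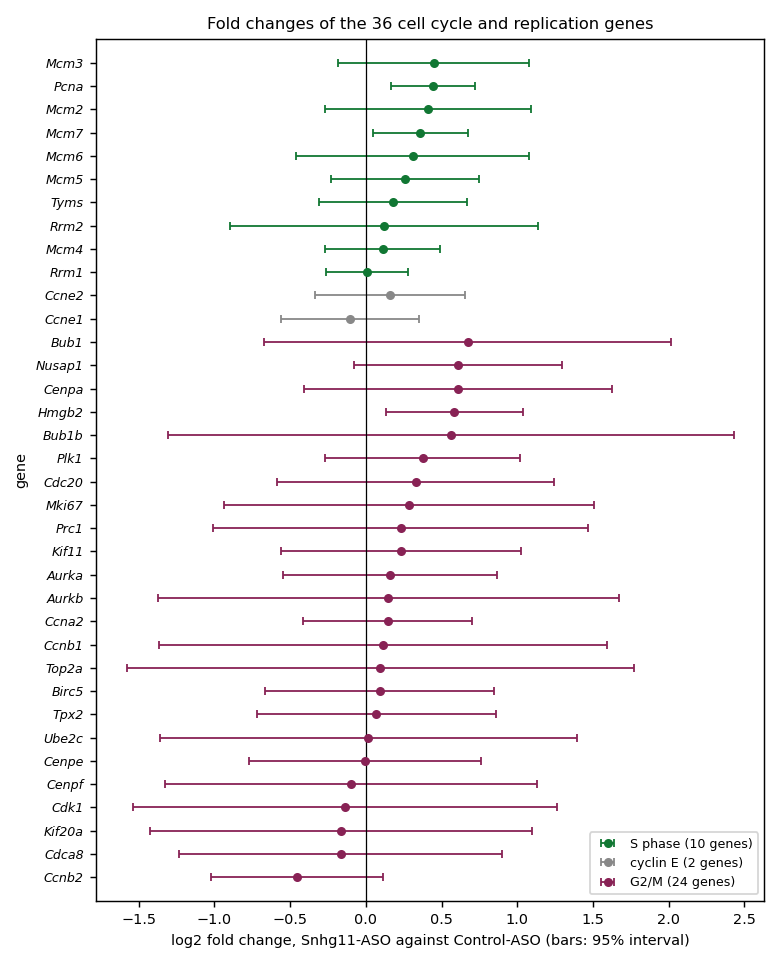
Log2 fold change of Snhg11-ASO against Control-ASO on the x axis for each of the 36 genes on the y axis, with bars for the 95% interval of edgeR's quasi-likelihood fit (n = 3 mice per group). The S phase intervals are the narrower ones and reach down to -0.90, while G2/M intervals run from -1.58 to 2.43, and only those of Pcna, Mcm7 and Hmgb2 lie wholly above 0.

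All 10 S phase members had fold changes above 0, from 0.01 (Rrm1) to 0.45 (Mcm3) on the log2 scale, with a median of 0.28 beside 0.01 over all genes tested. Pcna, the clamp of the replicative polymerases and the most abundant member per length, was measured at 18.6, 18.2 and 16.6 CPM with Control-ASO and at 26.6, 22.7 and 23.3 CPM with Snhg11-ASO. Every Snhg11-ASO sample was thus above every Control-ASO sample, and the means were 17.8 ± 1.08 and 24.2 ± 2.07 CPM (SD, n = 3). On the log2 scale it differed by 0.44 (standard error, SE, 0.12, 95% interval 0.17 to 0.72, unadjusted p = 0.00685, adjusted p = 0.492 in edgeR). The gene (ENSMUSG00000027342) lies on chromosome 2 of GRCm38 from 132249162 to 132253314, minus strand. The exact permutation test gave p = 0.1 (two-sided), the smallest value that 3 mice against 3 allow.

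Mcm7, a subunit of the MCM helicase, had 8.29, 8.06 and 8.91 CPM in Control-ASO and 11.4, 10.1 and 10.9 CPM in Snhg11-ASO, again without overlap. This was a difference of 0.36 on the log2 scale (SE 0.13, unadjusted p = 0.0302, adjusted p = 0.574 in edgeR). With the replicate block its unadjusted p was 0.053 in edgeR, and without Snhg11-ASO replicate 3 it was 0.0798, where those of Pcna were 0.0119 and 0.0163. Mcm7 (ENSMUSG00000029730) lies on chromosome 5 from 138164583 to 138172422, minus strand. Reads of Mcm7 exclude those that fall on Mir25 and Mir93, microRNAs within its annotated exons on the same strand.

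The remaining helicase subunits spread more widely. Mcm6 had 14.6, 20.7 and 16.1 CPM in Control-ASO and 11.5, 28.3 and 23.8 CPM in Snhg11-ASO, so that replicate 1 was the lowest of the 6 samples and the other Snhg11-ASO samples were the highest (log2 fold change 0.31, SE 0.32, adjusted p = 0.831 in edgeR). Mcm4 had 8.80, 10.3 and 10.2 CPM against 8.94, 10.8 and 11.9 CPM, with a log2 fold change of 0.11 and overlapping groups. Mcm2, Mcm3 and Mcm5 had log2 fold changes of 0.41, 0.45 and 0.26, with unadjusted p from 0.138 to 0.249. Among the nucleotide-supply genes the differences were smaller, 0.01 for Rrm1 (95% interval -0.26 to 0.28), 0.12 for Rrm2 and 0.18 for Tyms. Taken over the 10 genes, the summed level was 84.3, 95.2 and 86.9 CPM in Control-ASO and 91.1, 115.4 and 114.1 CPM in Snhg11-ASO.

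Cyclin E, the partner of Cdk2 at entry into S phase, showed no difference beyond its spread in either gene. Ccne1 had 7.41, 5.20 and 6.35 CPM in Control-ASO and 5.19, 6.20 and 6.23 CPM in Snhg11-ASO (log2 fold change -0.11, 95% interval -0.56 to 0.35). Ccne2 had 4.15, 3.42 and 4.66 CPM and 4.85, 3.85 and 4.95 CPM (0.16, 95% interval -0.34 to 0.65).

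**Figure D3:**
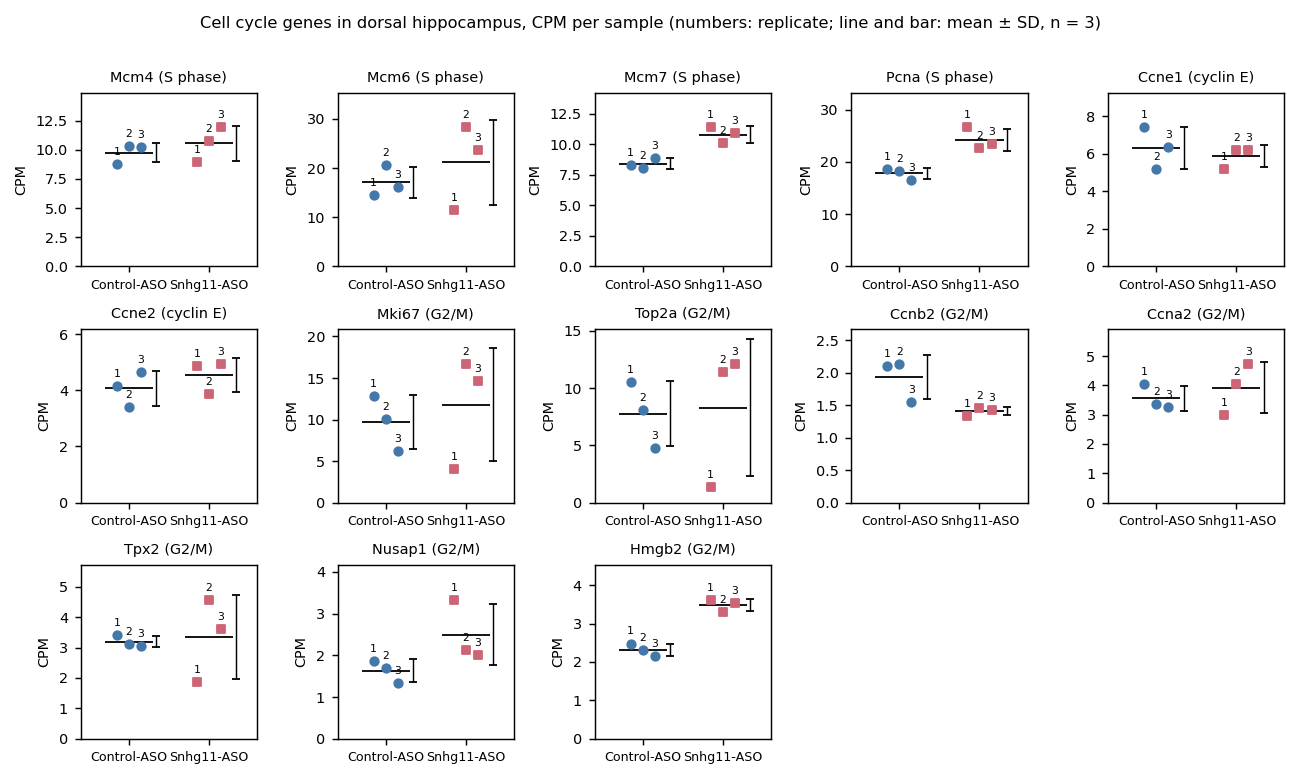
Level in CPM (y axis, from 0) of 13 cell cycle genes in each sample of Control-ASO (blue circles) and Snhg11-ASO (red squares), with the replicate number above each point and the mean ± SD (n = 3) as line and bar. Pcna, Mcm7, Hmgb2 and Nusap1 are higher in all 3 Snhg11-ASO samples and Ccnb2 lower, while for Mki67, Top2a, Mcm6 and Tpx2 replicate 1 of Snhg11-ASO lies below every other sample.

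Of the 24 G2/M members 18 had fold changes above 0 and 6 below, with a median of 0.15 and a range from -0.46 (Ccnb2) to 0.67 (Bub1). With the replicate number as a block the G2/M median was 0.05, and 2 of the 36 members, Pcna and Hmgb2, had an unadjusted p under 0.05 (background 8.59%). G2/M members were far less well determined than the S phase members, with a median standard error of 0.44, against 0.21 for S phase and 0.22 over all genes. The median SD of log2 CPM among replicates was 0.317 in Control-ASO and 0.810 in Snhg11-ASO for the G2/M members, compared with 0.107 and 0.286 for the S phase members and 0.175 and 0.268 over all genes tested. The log2 fold change of Pcna, 0.44, was about the size of the median standard error of the G2/M members. No member of either class passed the adjusted threshold, and the smallest difference that could be detected was not computed.

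Mki67 (Ki-67, the routine marker of cycling cells) had 12.8, 10.1 and 6.23 CPM in Control-ASO and 4.01, 16.7 and 14.6 CPM in Snhg11-ASO. The Snhg11-ASO samples thus held both the lowest and the 2 highest values (log2 fold change 0.28, SE 0.52, adjusted p = 0.900 in edgeR). Top2a, which untangles sister chromatids, likewise had its lowest and its highest values in Snhg11-ASO, with 10.5, 8.06 and 4.78 CPM and then 1.36, 11.4 and 12.1 CPM (log2 fold change 0.10, 95% interval -1.58 to 1.77). Tpx2, a spindle assembly factor that activates Aurora A, had 3.40, 3.12 and 3.06 CPM and 1.86, 4.57 and 3.60 CPM (0.07, SE 0.33). Ccna2, the cyclin of S phase and early mitosis, had 4.05, 3.36 and 3.27 CPM and 2.99, 4.04 and 4.74 CPM (0.14, SE 0.24). In all 4 genes replicate 1 of Snhg11-ASO was the lowest sample, and the groups overlapped.

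A few G2/M members departed from this pattern. Hmgb2, a chromatin protein abundant in proliferating cells, had 2.48, 2.32 and 2.17 CPM in Control-ASO and 3.62, 3.30 and 3.53 CPM in Snhg11-ASO. Its samples did not overlap and varied little within groups (log2 fold change 0.58, SE 0.19, 95% interval 0.13 to 1.04, unadjusted p = 0.0185, adjusted p = 0.544 in edgeR). Hmgb2 (ENSMUSG00000054717) lies on chromosome 8 from 57511907 to 57515999, plus strand. Nusap1, a microtubule-bundling spindle protein, had 1.87, 1.69 and 1.34 CPM and 3.33, 2.13 and 2.02 CPM, again without overlap (0.61, SE 0.29, unadjusted p = 0.0734, adjusted p = 0.647 in edgeR). This difference was 0.35 without Snhg11-ASO replicate 1 and 0.17 with counts of both strands. Ccnb2, a B-type cyclin of the mitotic kinase, was the only member with all Snhg11-ASO samples below all Control-ASO samples. It had 2.11, 2.14 and 1.54 CPM and 1.34, 1.46 and 1.42 CPM (log2 fold change -0.46, SE 0.24, unadjusted p = 0.0986, adjusted p = 0.678 in edgeR), whereas the other B-type cyclin, Ccnb1, had a fold change of 0.11.

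The samples of each group can be read as profiles over the members. Relative to each gene's mean over the 6 samples, the median G2/M member lay at 0.26, 0.03 and -0.33 in Control-ASO replicates 1 to 3 and at -0.81, 0.42 and 0.38 in the Snhg11-ASO replicates (log2 CPM). For the S phase members the corresponding medians were -0.18, 0.02 and -0.11, then -0.19, 0.20 and 0.26. Replicates 2 and 3 of Snhg11-ASO were therefore on the high side for both classes. Replicate 1 lay below every Control-ASO replicate for the median G2/M member. For S phase its median was near that of Control-ASO replicate 1, and its summed 91.1 CPM lay within the Control-ASO range of 84.3 to 95.2 CPM. Summed over the 24 genes, G2/M transcripts came to 69.7, 60.9 and 44.7 CPM in Control-ASO and to 37.7, 83.4 and 78.7 CPM in Snhg11-ASO.

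Snhg11-ASO replicate 1 was the lowest of the 6 samples for 25 of the 36 members, comprising 19 of 24 G2/M, 5 of 10 S phase and 1 cyclin E gene, where 32.5% of all genes tested had their lowest value in it. It lay below all Control-ASO samples for these 25 members and above all of them for 7, against 37.4% and 37.1% of all genes. Replicates 2 and 3 exceeded all Control-ASO samples for 22 and 27 members, against 25.2% and 27.6% of all genes. The median ratio of replicate 1 to the mean of the other Snhg11-ASO samples was 0.395 for the G2/M members and 0.713 for the S phase members, and the smallest, 0.116, belonged to Top2a. For 6 of the 36 members replicate 1 was instead the highest sample, where 33.3% of all genes tested had their highest value in it. These 6 were Pcna, Mcm7, Hmgb2, Nusap1, Plk1 and Cenpa. Cenpa, the centromeric histone H3 variant, had 2.69, 2.20 and 1.96 CPM in Control-ASO and 5.95, 2.11 and 2.38 CPM in Snhg11-ASO, so that its fold change of 0.61 became -0.02 without replicate 1. Plk1, a mitotic kinase, had 0.952, 0.743 and 0.861 CPM and 1.31, 0.909 and 1.10 CPM.

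**Figure D4:**
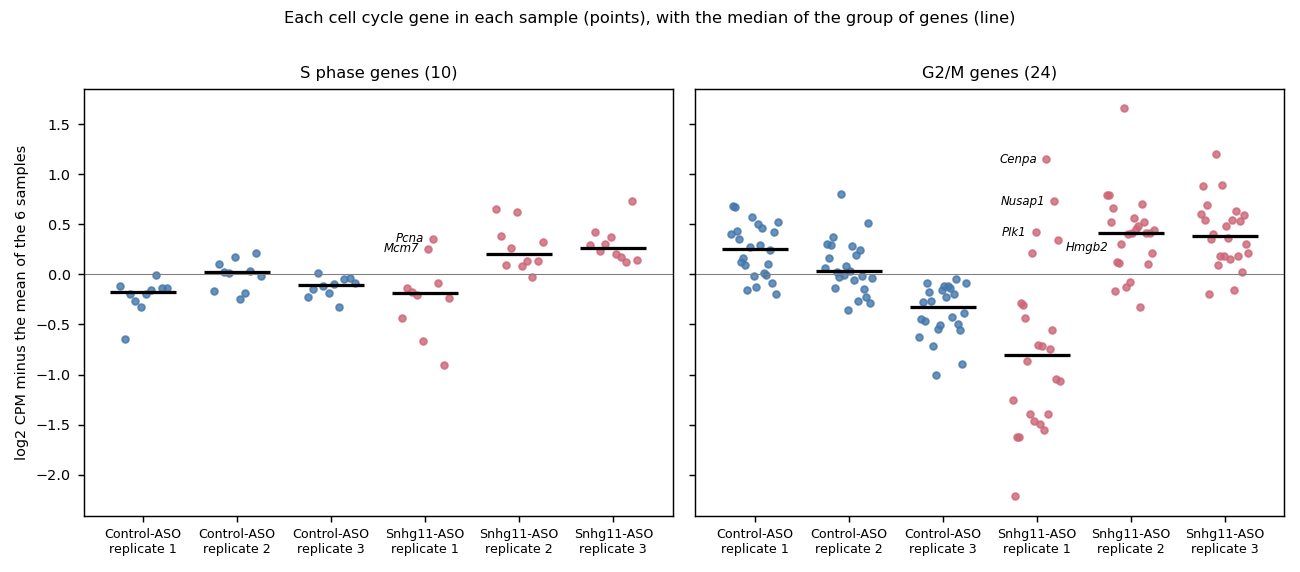
Log2 CPM minus the mean of the 6 samples (y axis) of each S phase gene (left, 10) and each G2/M gene (right, 24) in each sample (x axis), with the median as a line. In Snhg11-ASO replicate 1 the G2/M median is -0.81 with Cenpa, Nusap1, Plk1 and Hmgb2 above 0, whereas in replicates 2 and 3 it is 0.42 and 0.38.

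Leaving out Snhg11-ASO replicate 1 raised the median log2 fold change to 0.39 for S phase and to 0.35 for G2/M members. Of the 36 members 33 were then above 0, where 50.4% of all genes were, and 11 had an unadjusted p under 0.05, all higher, where the background in either direction was 9.94%. These were Mcm2, Mcm3, Mcm5, Mcm6, Mcm7, Pcna, Mki67, Bub1, Kif11, Prc1 and Hmgb2, and among them were 6 of the 10 S phase members. The log2 fold change was 0.60 for Mcm6 (SE 0.16, unadjusted p = 0.00914 in edgeR), 0.66 for Mcm2 and 0.70 for Mki67. Bub1, a spindle checkpoint kinase, had 1.07, Kif11, the spindle motor Eg5, 0.53, and Prc1, which bundles the central spindle, 0.66. No member passed the adjusted threshold in this fit either (smallest adjusted p 0.333). Leaving out replicate 2 or replicate 3 of Snhg11-ASO moved the other way, with G2/M medians of -0.06 and -0.01 and S phase medians of 0.13 and 0.19. Of the 36 members 22 and 20 were then above 0, where 50.5% and 50.4% of all genes were. Without replicate 2 the log2 fold changes were 0.04 for Mcm6, 0.14 for Mcm2 and -0.05 for Mki67, and without replicate 3 that of Bub1 was 0.02. An unadjusted p under 0.05 was found for 3 members without replicate 2 and for Pcna alone without replicate 3 (backgrounds 8.54% and 8.29%). Without both samples numbered 1, an alternative chosen after seeing the data, 35 members were above 0 and 12 had an unadjusted p under 0.05 (backgrounds 51.3% and 8.49%).

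**Figure D5:**
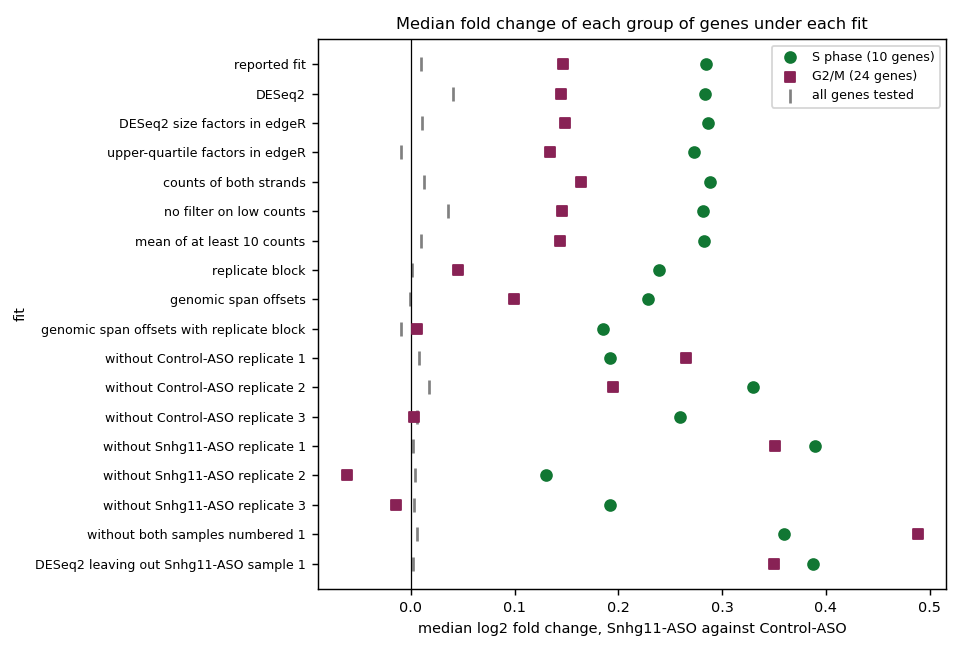
Median log2 fold change (x axis) of the S phase genes (green circles), the G2/M genes (purple squares) and all genes tested (grey ticks) in each fit (y axis). The S phase median stays above 0, between 0.13 and 0.39, while the G2/M median runs from -0.06 without Snhg11-ASO replicate 2 to 0.49 without both samples numbered 1.

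The rest of the pathway, taken from lists written by role, gave few calls as well. Of 50 other replication genes tested 31 were above 0 and 19 below, with a median of 0.06 (51.7% of all genes tested were above 0), 3 at an unadjusted p under 0.05, all higher (background 3.68% higher, 8.11% either way), and 0 past the adjusted threshold in edgeR or DESeq2. Chaf1b, a subunit of the histone chaperone that follows the replication fork, had 0.374, 0.476 and 0.356 CPM in Control-ASO and 1.07, 0.909 and 0.825 CPM in Snhg11-ASO (log2 fold change 1.21, SE 0.29, unadjusted p = 0.00407, adjusted p = 0.460 in edgeR). Its partner Chaf1a had a log2 fold change of 0.44 and Cdt1, the MCM loading factor, one of 1.28, which was 0.55 without replicate 1. Of 58 other mitosis genes tested 35 were above 0 (median 0.14), 2 of them at an unadjusted p under 0.05, against those same backgrounds of 51.7% and 3.68%, and 0 passed the adjusted threshold in either tool. The spindle proteins Ckap2 and Gtse1 had log2 fold changes of 0.99 and 0.95, and Cks2, a subunit of the Cdk complexes, one of 0.56.

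Among 32 genes for D-type cyclins, E2F factors and inhibitors 23 were above 0 (median 0.17, background 51.7%) and 3 had an unadjusted p under 0.05, all higher (background 3.68%), again with 0 past the adjusted threshold in either tool. Cdkn1a, which encodes the Cdk inhibitor p21, had 4.66, 3.72 and 4.90 CPM in Control-ASO and 62.6, 9.60 and 12.4 CPM in Snhg11-ASO. All Snhg11-ASO samples were above all Control-ASO samples, and replicate 1 was far above the rest (log2 fold change 2.67, SE 0.73, unadjusted p = 0.00812, adjusted p = 0.494 in edgeR, adjusted p = 0.079 in DESeq2). Without replicate 1 its log2 fold change was 1.31. Lin54, a MuvB subunit, and E2f3 had log2 fold changes of 0.34 and 0.32.

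Markers of the cell types that can divide, or that differ between dissections, were read beside the members. Microglial markers summed to between 284 and 521 CPM in Control-ASO and to 156, 433 and 535 CPM in Snhg11-ASO replicates 1 to 3. All 9 of 9 were lowest in replicate 1 of Snhg11-ASO, as were 32.5% of all genes tested. Among them Csf1r had 82.1, 136.9 and 93.8 CPM and 53.6, 93.4 and 119.1 CPM. The 8 markers of oligodendrocyte precursors summed to between 171 and 196 CPM and to 147, 160 and 177 CPM, with 5 of 8 lowest in replicate 1. Gpr17, expressed by precursors committed to differentiation, had 26.9, 49.3 and 40.6 CPM in Control-ASO and 1.23, 26.3 and 39.4 CPM in Snhg11-ASO, whereas Pdgfra lay between 49.5 and 61.5 CPM in all samples.

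Markers of progenitors and neuroblasts (7 of 10 tested) summed to between 76.6 and 97.3 CPM and to 156, 92.9 and 97.7 CPM, led in replicate 1 by Sox11 with 73.6 CPM against 21.9 to 28.4 CPM elsewhere, while Calb2 ranged from 3.39 to 17.0 CPM. Of these 7 genes 3 were above 0 and 4 below, with a median log2 fold change of -0.10. Within this list, and chosen after their values were seen, Nes was higher in all Snhg11-ASO samples (9.82, 15.3 and 7.45 CPM against 52.1, 24.4 and 35.1 CPM, adjusted p = 0.00017 in DESeq2 and 0.377 in edgeR) and Dcx lower (24.4, 18.7 and 29.7 CPM against 15.1, 17.9 and 17.5 CPM, adjusted p = 0.283 in DESeq2 and 0.561 in edgeR). Markers of infiltrating leukocytes (6 of 10 tested) summed to between 2.71 and 6.97 CPM in Control-ASO and to 51.5, 7.63 and 5.84 CPM in Snhg11-ASO. All 6 were highest in replicate 1, as were 33.3% of all genes tested. In that sample S100a8 made 22.3 CPM and S100a9 16.0 CPM of the sum. Dentate granule cell markers, among them Prox1 and C1ql2, summed to between 250 and 336 CPM and to 326, 374 and 302 CPM, and neuronal markers, among them Snap25 and Camk2a, to between 4080 and 4487 CPM and to 3800, 4081 and 3725 CPM. Of the 8 neuronal markers 1 had a fold change above 0 and 7 below, with a median of -0.17 on the log2 scale. The groups did not overlap for 3 of these 8, all lower (background 7.7%). In edgeR 2 had an unadjusted p under 0.05, both lower (background 4.43%). Astrocyte markers, with Gfap and Slc1a2, came to between 4831 and 7075 CPM and to 4245, 7082 and 7118 CPM, oligodendrocyte markers, with Mbp, to between 1489 and 2761 CPM and to 1618, 3424 and 2670 CPM, and endothelial markers, with Cldn5 and Ly6c1, to between 151 and 186 CPM and to 178, 154 and 160 CPM. Choroid plexus markers, with Ttr and Kl, varied from 37.6 to 1955 CPM within Control-ASO and were 1335, 130 and 71.2 CPM in Snhg11-ASO. No marker was at 0 in all samples, and the part of any of these cell types in the members' values was not tested.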

How the data were processed

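RNA of the dorsal hippocampus of 3 Control-ASO and 3 Snhg11-ASO mice was sequenced. Libraries were stranded total RNA, and the authors aligned paired reads to mm10 (GRCm38) with STAR 2.5.2a and deposited raw counts per gene for both strands and for each strand, without normalization or pooling. The methods of the study name Rsubread for counting, whereas the deposited columns are those STAR writes. Summary lines that name no gene (43.5% to 51.4% of read pairs) entered neither library sizes nor tests. Multimapping pairs (4.61% to 6.10%) are not counted, so genes with near-identical copies (Pcna, Tyms, Ccnb1 and Ccnb2 have named pseudogenes) can be undercounted. The study removed 1 Snhg11-ASO sample that it does not name, and all were kept here.

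Reverse-strand counts, which held 96.2% to 96.8% of stranded counts, were used. Of the members 10 overlap exons of a gene on the opposite strand, whose reads enter neither those counts nor the tests. Symbols, positions and exon lengths came from GENCODE M21, which matched 55141 of 55401 identifiers. Genes were filtered with filterByExpr (minimum count 10) and scaled by TMM, and groups were compared with edgeR 4.0.16 in R 4.3.3 (quasi-likelihood test, Benjamini-Hochberg adjustment over all genes tested, threshold 0.05). The biological coefficient of variation was 0.266, and standard errors are |log2 fold change| over the root of the F statistic. A prior count of 2 was added for log2 CPM. All members are protein-coding. The fits were tested on simulated counts with known changes.

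Same-numbered samples deviated together from their group means (correlations 0.297, 0.179 and 0.103), each above 0.1. Correlations between samples of different number were not set beside these. The reported fit did not pair the samples, and only the fits with the replicate block treat them as pairs. The pairing in those fits rests on the values alone, since neither labels nor methods give a shared day or litter.

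Alternatives were DESeq2 1.42.0, edgeR with DESeq2's or upper-quartile size factors, unstranded counts, an unfiltered table, a filter on a mean count of 10, the replicate block, offsets for genomic span with and without the block, and each sample left out in turn. Leaving out both samples numbered 1, and DESeq2 without Snhg11-ASO replicate 1, were chosen after seeing the data. The members and gene lists were chosen with earlier results of these data known. Sample values are given for the 4 S phase and 6 G2/M members with the highest mean RPKM, for both cyclin E genes and for each member with an unadjusted p under 0.05 or groups that do not overlap. Cenpa and Plk1 were added after their values were seen. Of each pathway list the 3 genes with the smallest unadjusted p and of each cell type list the 2 markers with the highest mean RPKM are named, except where a marker is not reported here. Promoter windows were read from RefSeq (GRCm38.p6) and found for 30 of 36 members.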

Additional observations from a re-analysis of the deposited data

How the results depend on the processing

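The number of members past the adjusted threshold was 0 in the reported fit and in all 17 alternatives. Over all genes edgeR called 0, and between 0 and 2 with each sample left out in turn (2, both lower, without Snhg11-ASO replicate 1), whereas DESeq2 called 251 and, without Snhg11-ASO replicate 1, 346. The S phase median kept its sign in every alternative, and with samples left out in turn it lay between 0.13 and 0.39. The G2/M median lay between -0.06 and 0.35 when samples were left out, and was 0.00 without Control-ASO replicate 3. Without both samples numbered 1 the medians were 0.36 and 0.49, with 35 members above 0 and 12 at an unadjusted p under 0.05 (backgrounds 51.3% and 8.49%).

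With the replicate number as a block, 24 members were above 0 and 2 had an unadjusted p under 0.05 (Pcna and Hmgb2, against 8.59% of genes). The medians were then 0.24 and 0.05, beside 0.0008 over all genes tested, and no adjusted call changed. The sign turned for Top2a (-0.18 with the block, -0.23 with the block and span offsets) and Tpx2 (-0.012 and -0.041), and for Ccne1 without both samples numbered 1 (0.10). With samples left out in turn the log2 fold changes ranged from -0.28 to 0.60 for Top2a, -0.22 to 0.36 for Tpx2, -0.053 to 0.70 for Mki67, -0.016 to 0.31 for Ccna2 and -0.23 to 0.016 for Ccne1. These changes depended on which samples were left out or on the block, and their causes were not tested. Pcna, Mcm4, Mcm6, Mcm7, Hmgb2, Nusap1, Ccne2 and Ccnb2 kept their sign in all 17 alternatives. Counts of a G2/M member were as low as 6 in a sample. The SE was 0.71 for Top2a (52 to 530 counts) and 0.24 for Ccnb2 (51 to 72 counts). The part of low counts in the precision of the G2/M members was not tested.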
